A study of Mus musculus with 16 samples.

Results

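Transcripts of 8 genes that mark or shape conventional dendritic cells were examined in sorted mouse lung myeloid cells: Flt3, Zbtb46, Irf4, Dpp4, Btla, Bcl11a, Runx3 and Kit. The genes were given as a list of symbols, and a gene was represented by a probe set annotated with that symbol alone. All 8 had 1 such probe set each, and they are 8 of the 19938 genes measured. The cells carried CD11c, MHC class II and CD11b, were called CD11b+ DCs by the submitters, and were sorted by flow cytometry. They came from C57BL/6 mice, with an intact immune system, that had been given the syngeneic Lewis lung carcinoma line through the airways. A group of 8 arrays was labelled tumoral, for cells from lung tumour, and a group of 8 was labelled peritumoral, for cells from the lung tissue around it. Groups follow the sample titles, and no value in the table checks them independently: the lowest values of most of the 8 genes recur at regular positions of the deposited order across both titles, as described with the results. Every animal bore a tumour, so no group stands for healthy lung. The sources used here do not give the age, sex or number of the mice, or whether cells were pooled. No label ties an array to an animal, and p-values therefore measure only the spread between these arrays, which may in part be technical.

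Conventional dendritic cells arise from marrow progenitors under the cytokine Flt3 ligand, whose receptor they keep on their surface when mature. In lung they fall into a type 1 lineage that depends on Irf8 and Batf3, and a type 2 lineage that carries CD11b and draws on Irf4. Monocyte-derived cells and macrophages of inflamed lung can carry CD11c, MHC class II and CD11b as well, while Flt3 and Zbtb46 are largely absent from them.

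Promoter windows of 4 of the genes are shown because 3 of them (Flt3, Zbtb46 and Irf4) varied closely together across the arrays while Runx3 followed them less closely. Each is the 300 bases around a transcription start site as annotated in RefSeq, build GRCm38.p6, written 5′ to 3′ on the gene's strand, with 250 bases before the start. In Zbtb46 the bases just before that start are mostly c and t and end in ag, as at the end of an intron. The Zbtb46 window may therefore not be its promoter, and the start sites were not checked in these cells. Capitals mark matches, on either strand, to the RUNX motif (TGTGGT or ACCACA), the PU.1 motif (GAGGAAG or CTTCCTC) or the composite ETS and IRF motif (GGAA and GAAA with 2 bases between them, or the reverse complement).
Flt3, chr5:147400440-147400739, minus strand: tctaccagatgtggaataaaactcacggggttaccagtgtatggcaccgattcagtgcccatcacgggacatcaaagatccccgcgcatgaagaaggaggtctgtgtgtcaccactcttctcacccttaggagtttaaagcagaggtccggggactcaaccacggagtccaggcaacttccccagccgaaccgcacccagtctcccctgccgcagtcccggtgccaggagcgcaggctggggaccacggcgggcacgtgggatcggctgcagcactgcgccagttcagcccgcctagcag
Zbtb46, chr2:181424339-181424638, minus strand: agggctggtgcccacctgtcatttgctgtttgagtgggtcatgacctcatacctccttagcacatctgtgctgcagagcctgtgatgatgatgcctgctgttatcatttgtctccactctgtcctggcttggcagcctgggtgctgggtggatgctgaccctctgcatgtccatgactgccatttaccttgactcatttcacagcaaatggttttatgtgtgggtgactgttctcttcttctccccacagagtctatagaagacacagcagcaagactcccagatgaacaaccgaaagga
Irf4, chr13:30748983-30749282, plus strand: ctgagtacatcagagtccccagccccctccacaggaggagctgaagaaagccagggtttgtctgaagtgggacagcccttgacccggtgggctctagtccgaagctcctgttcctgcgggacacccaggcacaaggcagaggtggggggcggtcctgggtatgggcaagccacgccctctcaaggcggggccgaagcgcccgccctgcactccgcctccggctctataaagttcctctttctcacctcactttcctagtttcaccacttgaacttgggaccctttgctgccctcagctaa
Runx3, chr4:135120395-135120694, plus strand: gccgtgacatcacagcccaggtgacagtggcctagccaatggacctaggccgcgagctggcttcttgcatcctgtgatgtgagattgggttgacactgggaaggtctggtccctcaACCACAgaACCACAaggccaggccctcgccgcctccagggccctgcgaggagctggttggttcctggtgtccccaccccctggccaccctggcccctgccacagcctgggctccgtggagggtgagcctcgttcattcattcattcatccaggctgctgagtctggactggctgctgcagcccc
RUNX matches, at 134 and 126 bases before the start site, stand only in the Runx3 sequence among these 4. RefSeq gives Runx3 another start site, whose window, chr4:135152295-135152594 on the plus strand, holds 0 RUNX matches and is not printed. The RUNX letters occur in 16.8% of 32851 mouse promoter windows of this length, the PU.1 letters in 13.6% and the composite letters in 2.72%. Of 10 windows of the 8 genes, 2 held the RUNX letters (Runx3 and Btla), 4 held the PU.1 letters (1 of Dpp4, both overlapping windows of Kit and 1 of Btla) and 0 held the composite. In Btla the PU.1 letters overlapped in 2 copies that began 24 and 18 bases before the start site. Such matches describe the letters of these windows and show no binding.

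The values were log2 expression as deposited by the authors, and the sources used here state neither their log base nor their normalization. A difference of 1 is read as 2-fold on the assumption of base 2. Array medians lay between 6.75 and 6.95. Among 1194 olfactory and vomeronasal receptor genes, which are not expected in these cells, the median of the mean values was 4.69 and the 95th percentile 6.35. The lowest value of any of the 8 genes in any array was 7.27, for Zbtb46 in tumoral 4. The genes of the sorting markers were measured in every array, with Itgax (CD11c) from 11.51 to 11.72 in tumoral and from 11.07 to 11.79 in peritumoral arrays, H2-Ab1 (MHC class II) from 13.10 to 13.38 and from 13.06 to 13.38, and Itgam (CD11b) up to 11.62 and from 10.18 to 11.80. One library stood apart: peritumoral 4 had the lowest Itgax and Itgam values of all 16 arrays. It also had the highest mean of the endothelial, fibroblast, epithelial, B, NK, T, mast cell and neutrophil marker lists, though not of every marker in them.

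The dendritic cell identity genes did not pass the test between the tumoral and the peritumoral label. Within a label, the highest and lowest arrays were 2.07-fold to 3.7-fold apart for Flt3, Zbtb46, Irf4, Dpp4, Btla and Bcl11a. They were 1.9-fold and 4.1-fold apart for Kit and 1.18-fold and 1.72-fold apart for Runx3, in tumoral and in peritumoral arrays. None of the 8 passed limma, a linear model with moderated variances fitted over all 19938 genes, at a Benjamini-Hochberg adjusted p under 0.05. The same test called 0 of all 19938 genes (0%), with 2292 (11.5%) at an unadjusted p under 0.05, against 0 of the 8 genes. Of the 8 differences, tumoral minus peritumoral, 6 were above 0 and 2 below, with a median of 0.03, beside 41.7% above 0 and a median of -0.02 over all genes. In 7 genes the label accounted for at most 0.68% of the variance over the 16 arrays, and in Runx3 for 18.3%. In bulk samples of this kind, fewer cells of a type and less RNA per cell cannot be told apart.

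**Figure D1:**
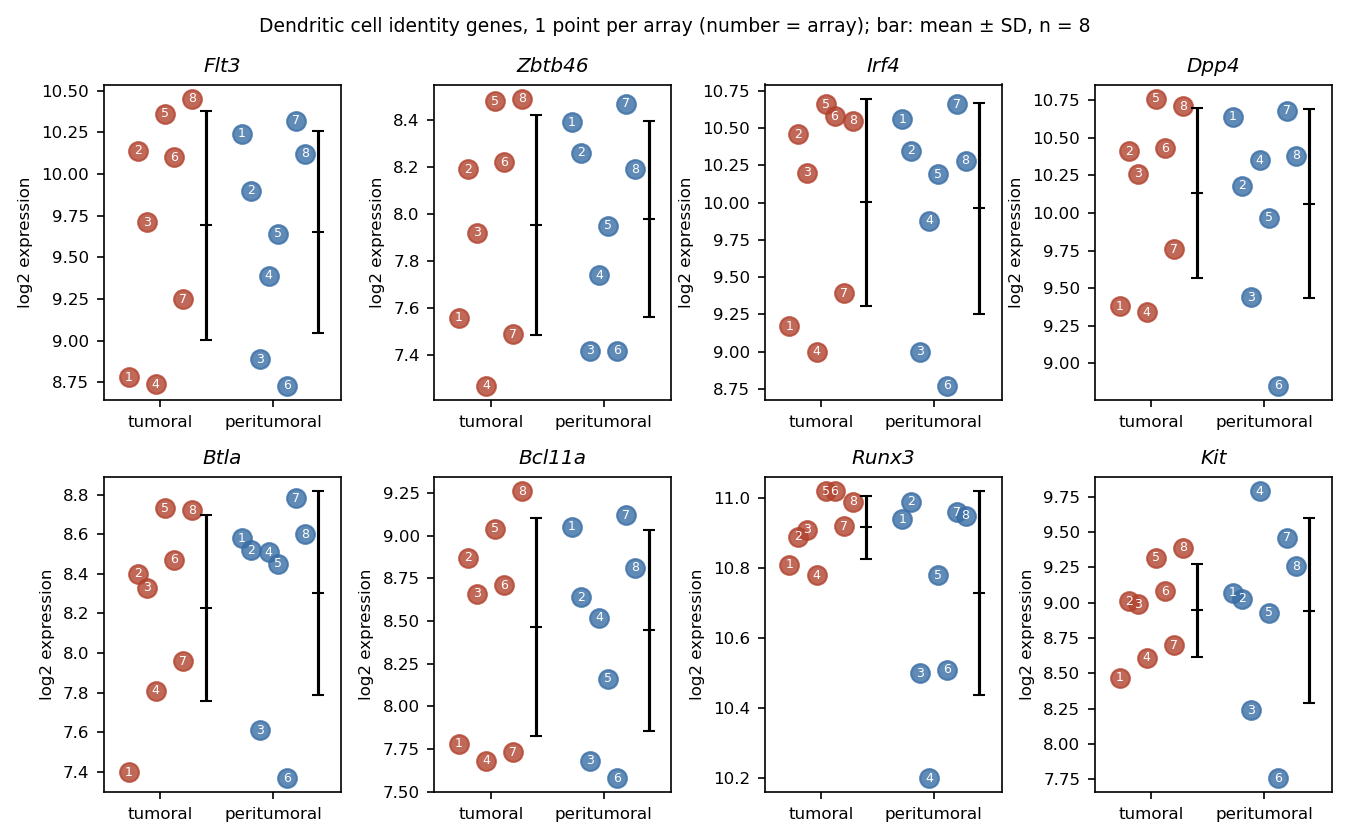
Log2 expression (vertical axes) of the 8 genes in each tumoral and peritumoral array, with the array number in each point and the mean ± SD (n = 8) as a bar. Tumoral 1, 4 and 7 and peritumoral 3 and 6 lie at the bottom for every gene but Runx3, whose lowest value is 10.20 in peritumoral 4.

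Flt3, the receptor tyrosine kinase for Flt3 ligand, measured 8.78, 10.14, 9.71, 8.74, 10.36, 10.10, 9.25 and 10.45 in tumoral 1 to 8. In peritumoral 1 to 8 it measured 10.24, 9.90, 8.89, 9.39, 9.64, 8.73, 10.32 and 10.12. Both labels held arrays below 9 and arrays above 10, and the groups overlapped over nearly their whole range. The means were 9.69 ± 0.69 in tumoral and 9.65 ± 0.61 in peritumoral arrays (SD, n = 8 each). The difference of 0.04 (SE 0.29, 95% interval -0.58 to 0.66) did not pass limma (adjusted p = 0.977). The highest and lowest arrays, tumoral 8 and peritumoral 6, were 3.31-fold apart, and the SD over the 16 arrays, 0.63, was larger than that of 97.7% of genes. Of the genes that supply or share this signal, Flt3l, which encodes the ligand, measured 8.05 ± 0.12 in tumoral and 8.20 ± 0.16 in peritumoral arrays (difference -0.15, limma adjusted p = 0.456).

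The transcription factor genes with the pattern of Flt3 were Zbtb46, Irf4 and Bcl11a. Zbtb46, a zinc finger repressor that among immune cells marks conventional dendritic cells and their committed precursors, measured 7.56, 8.19, 7.92, 7.27, 8.48, 8.22, 7.49 and 8.49 in tumoral 1 to 8. The values of peritumoral 1 to 8 were 8.39, 8.26, 7.42, 7.74, 7.95, 7.42, 8.47 and 8.19. The arrays below 7.6 were again tumoral 1, 4 and 7 and peritumoral 3 and 6. Its difference was -0.03 (SE 0.20, 95% interval -0.45 to 0.40, limma adjusted p = 0.975).

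Irf4, an interferon regulatory factor that type 2 dendritic cells need for migration and antigen presentation and that binds DNA together with PU.1, measured 9.17, 10.46, 10.20, 9.0, 10.66, 10.58, 9.39 and 10.55 in tumoral 1 to 8. In peritumoral 1 to 8 it measured 10.56, 10.35, 9.0, 9.88, 10.19, 8.77, 10.66 and 10.28. The same 5 arrays lay at or below 9.39, and the next lowest was peritumoral 4 at 9.88. The medians were 10.33 in tumoral and 10.23 in peritumoral arrays, and the difference of the means was 0.04 (SE 0.32, 95% interval -0.63 to 0.71, limma adjusted p = 0.978). Bcl11a, a zinc finger factor required for B cell and plasmacytoid dendritic cell development, had its lowest value at 7.68, its median at 8.69 and its highest at 9.26 in tumoral arrays, and 7.58, 8.58 and 9.12 in peritumoral arrays. Its 5 lowest values, at 7.78 or below, came from the same 5 arrays, and its difference was 0.02 (limma adjusted p = 0.987).

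Runx3, a Runt-domain factor that works with the partner Cbfb in dendritic cells and cytotoxic lymphocytes, was the exception to this pattern. It measured 10.81, 10.89, 10.91, 10.78, 11.02, 11.02, 10.92 and 10.99 in tumoral 1 to 8. Those of peritumoral 1 to 8 were 10.94, 10.99, 10.50, 10.20, 10.78, 10.51, 10.96 and 10.95. The tumoral arrays lay close together, whereas peritumoral 3, 4, 5 and 6 lay below all of them, peritumoral 5 by less than the rounding shown. The means were 10.92 ± 0.09 in tumoral and 10.73 ± 0.29 in peritumoral arrays (SD, n = 8 each). The difference of 0.19 (SE 0.10, 95% interval -0.03 to 0.41) did not pass limma (adjusted p = 0.493) or an exact two-sided permutation test (p = 0.103), and it was 0.12 without peritumoral 4. Its SD over the 16 arrays, 0.23, was larger than that of 71.4% of genes. Cbfb measured 9.94 ± 0.09 in tumoral and 9.91 ± 0.12 in peritumoral arrays, a difference of 0.03 (limma adjusted p = 0.875) that turned to -0.01 without peritumoral 4.

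Among the surface proteins, Dpp4 encodes CD26, a peptidase that trims chemokines and marks some dendritic cells. Its lowest, median and highest values were 9.34, 10.34 and 10.76 in tumoral arrays, and 8.85, 10.26 and 10.68 in peritumoral arrays. Btla encodes an inhibitory receptor of lymphocytes and dendritic cells, with 7.40, 8.37 and 8.73 in tumoral arrays and 7.37, 8.51 and 8.78 in peritumoral arrays. For both genes the 5 lowest arrays were tumoral 1, 4 and 7 and peritumoral 3 and 6, and the differences were 0.07 and -0.08 (limma adjusted p = 0.947 and 0.927). Tnfrsf14, which encodes HVEM, the ligand of BTLA, ran the other way: its 5 highest values, 9.83, 9.95 and 9.69 in tumoral 1, 4 and 7 and 9.49 and 9.41 in peritumoral 3 and 6, came from the arrays lowest in Btla. Between the labels Tnfrsf14 differed by 0.11 (limma adjusted p = 0.844), and by 0.04 without peritumoral 4.

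Kit, the receptor for stem cell factor, is carried by mast cells and progenitors and by some lung dendritic cells. It measured 8.47, 9.01, 8.99, 8.61, 9.32, 9.08, 8.70 and 9.39 in tumoral 1 to 8. In peritumoral 1 to 8 it measured 9.07, 9.03, 8.24, 9.79, 8.93, 7.76, 9.46 and 9.26. Its lowest 5 arrays were those of Flt3, but its highest was peritumoral 4, which ranked the sixth lowest for Flt3. The widest span of the 8 genes was that of Kit, 4.10-fold between peritumoral 4 and peritumoral 6. The means were 8.95 ± 0.33 in tumoral and 8.94 ± 0.66 in peritumoral arrays (SD, n = 8 each), with a difference of 0.00 (95% interval -0.49 to 0.50, limma adjusted p = 0.998). Kitl, which encodes stem cell factor, was also highest in peritumoral 4, at 9.63, and averaged 7.26 ± 0.48 in tumoral and 7.49 ± 1.04 in peritumoral arrays (limma adjusted p = 0.851). Without that array its difference turned to 0.08, against -0.22 over all arrays.

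**Figure D2:**
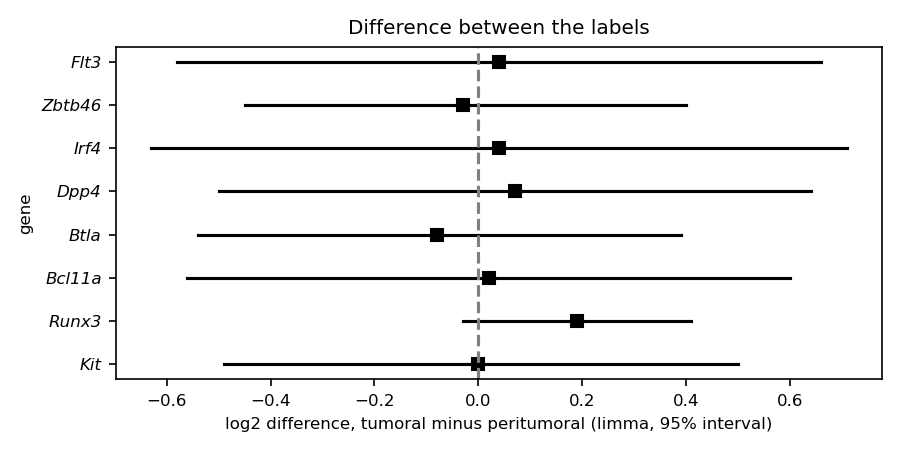
Difference in mean log2 expression, tumoral minus peritumoral (horizontal axis), for each of the 8 genes (vertical axis), with the 95% interval from limma as a line. All 8 intervals contain 0, and that of Runx3 runs from -0.03 to 0.41.

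Leaving out arrays brought no member past the threshold. With peritumoral 7 and 8 both left out, 522 genes (2.62%) passed and 0 of the 8 did. With peritumoral 7, peritumoral 8, or peritumoral 4 and 7 left out, 128 (0.642%), 20 (0.1%) and 88 (0.441%) genes passed, again with 0 of the 8. The intervals of Flt3, Irf4, Dpp4, Btla, Bcl11a and Kit reach 0.39 or more on the log2 scale above 0 and 0.49 or more below it, and so leave room for differences of that size.

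The variation within each label was shared among the genes. In 7 of the 8 the 5 lowest values came from tumoral 1, 4 and 7 and peritumoral 3 and 6. Runx3 had 3 of its 5 lowest values there. In the order of the deposited table, in which peritumoral 1 to 8 precede tumoral 1 to 8, these arrays stand at positions 3, 6, 9, 12 and 15 of 16. No label gives that position a meaning, so no comparison was made by it. Whether the titles describe the arrays in the order deposited could not be checked from these values, and every tumoral minus peritumoral difference given here rests on the titles. The mean of the 8 genes per array, after each gene was centred on its mean, measured -0.61, 0.27, 0.10, -0.62, 0.52, 0.30, -0.38 and 0.54 in tumoral 1 to 8. In peritumoral 1 to 8 it measured 0.41, 0.21, -0.68, 0.02, -0.02, -0.90, 0.53 and 0.30.

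**Figure D3:**
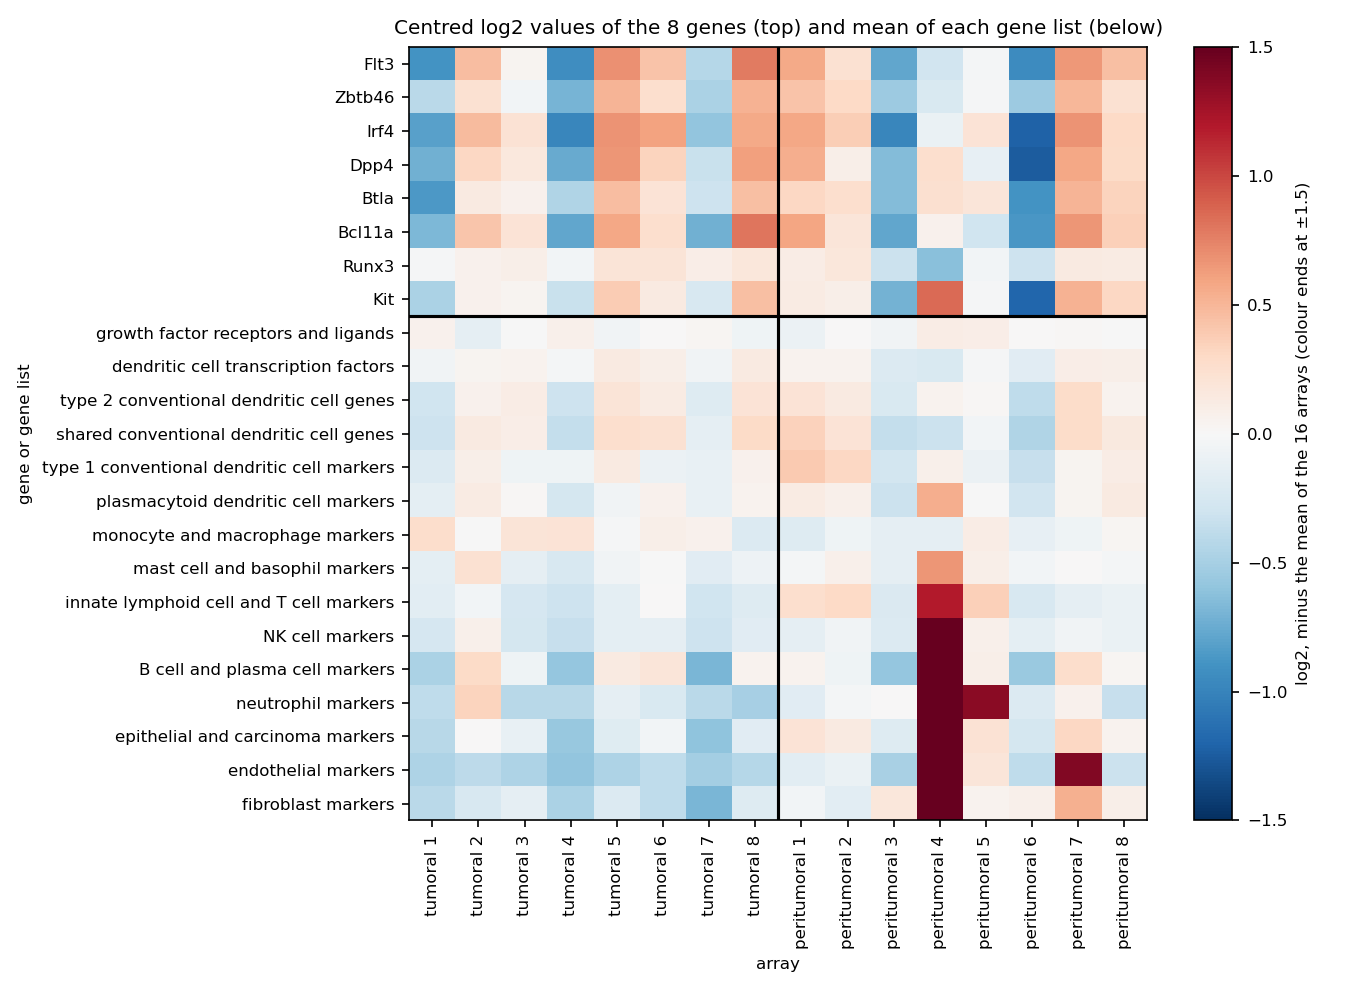
Log2 value minus the mean over the 16 arrays, as colour, for the 8 genes (upper rows) and for the mean of each gene list (lower rows), with tumoral arrays left and peritumoral arrays right. Tumoral 1, 4 and 7 and peritumoral 3 and 6 are blue in Flt3, Zbtb46, Irf4, Dpp4, Btla, Bcl11a and Kit. Peritumoral 4 exceeds the others in the endothelial (3.56), NK cell (2.15), fibroblast (1.98) and B cell (1.94) lists.

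Pearson correlations over the 16 arrays were between 0.88 and 0.97 for the 15 pairs of Flt3, Zbtb46, Irf4, Dpp4, Btla and Bcl11a, and Spearman correlations between 0.87 and 0.98. After adjustment over all 28 pairs of the 8 genes, permutation p-values for these 15 were at most 6.2e-05 (Pearson) and 8.7e-05 (Spearman), close to 1e-05, the smallest unadjusted value that 100000 resamples can give. Arrays of one study share preparation and scaling, and the genes were listed with earlier results of these arrays known. The correlations held within each label, at 0.89 to 0.99 over tumoral and 0.87 to 0.99 over peritumoral arrays, and at 0.87 to 0.97 without the 2 arrays farthest from the median of the first gene. Without tumoral 1, 4 and 7 and peritumoral 3 and 6, a choice made after the values were seen, they were 0.55 to 0.96 over 11 arrays. Among these Flt3 and Zbtb46 kept 0.96 and Irf4 and Btla fell to 0.55.

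Kit and Runx3 followed the others less closely over all arrays, and more closely when peritumoral 4 was left out. Kit correlated with the 6 genes at 0.71 to 0.90 (permutation p adjusted over the 28 pairs at most 0.00179), and Runx3 with the other 7 at 0.22 to 0.63 (adjusted permutation p from 0.00836 to 0.403). Runx3 and Kit themselves had a correlation of 0.22 over 16 arrays. In peritumoral 4 Runx3 was the lowest and Kit the highest of all arrays. Without that array alone, a choice made after the values were seen, Kit correlated with the 6 genes at 0.87 to 0.95 and Runx3 with the other 7 at 0.76 to 0.89. The pairs among the 6 genes then had 0.92 to 0.98, and the lowest of all 28 correlations was 0.76.

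**Figure D4:**
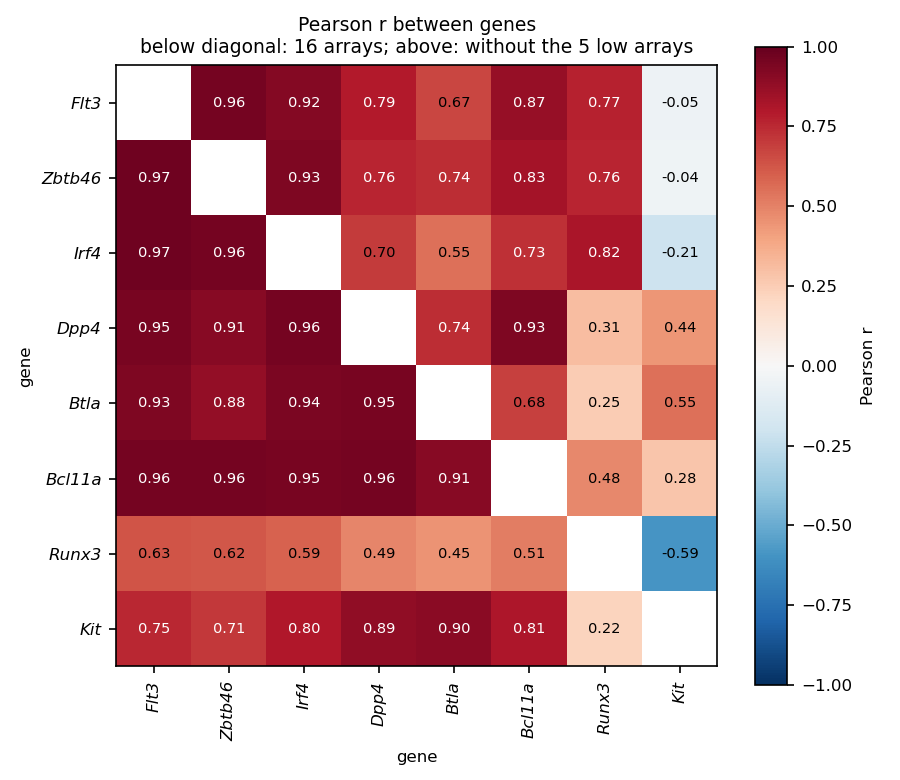
Pearson correlation, as colour and number, between each pair of the 8 genes (both axes) over the 16 arrays below the diagonal and over 11 arrays above it. The 11 arrays leave out tumoral 1, 4 and 7 and peritumoral 3 and 6, the low arrays of the title. Below the diagonal Runx3 stands out with 0.22 to 0.63, and above it Kit has values down to -0.59. The 11 arrays include peritumoral 4, which had the highest Kit and the lowest Runx3 value.

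Marker levels of other cells were set beside this for peritumoral 4. All 12 endothelial markers were lower in tumoral arrays on average, with list means of -0.59 to -0.38 in tumoral and -0.49 to 3.56 in peritumoral arrays. Cdh5, the endothelial cadherin, reached 12.09 in peritumoral 4. All 9 B cell markers were also lower in tumoral arrays on average, with list means of -0.68 to 0.29 in tumoral and -0.58 to 1.94 in peritumoral arrays. Mast cell markers were lower for 9 of 10, with list means of -0.24 to 0.23 and -0.13 to 0.66. Of the mast cell genes, Cpa3, a granule carboxypeptidase, measured 5.69 in peritumoral 4 and 4.89 or less in the other arrays, below the 95th percentile of the receptor genes named above. No value in this table is 0, so no marker was listed at 0. The part of these cells in the Kit and Runx3 values of peritumoral 4 was not tested.

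Genes that resembled each member most were sought among the 9969 genes with a mean above the median of all gene means, by Pearson correlation over the 16 arrays, as a description. For Flt3 they were Tnip3 (0.99), an inhibitor of NF-kappaB signalling, Etv3 (0.99), an ETS-family repressor, and Arhgap26 (0.98). For Zbtb46 they were Dock2 (0.98), an activator of the GTPase Rac in leukocyte migration, Mob3b (0.98) and Flt3 itself (0.97). For Irf4 they were Jak2 (0.99), the kinase of cytokine receptors, Wnt11 (0.99) and the magnesium transporter gene Slc41a1 (0.99). Each of these correlations was at least 0.92 over the 11 arrays without tumoral 1, 4 and 7 and peritumoral 3 and 6.

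Dpp4 was matched by Grap2, an adaptor of immune receptor signalling, H2-Ob, a chain of the class II modulator H2-O, and Ankrd44, each at 0.98. Bcl11a was matched by Mideas, Aldh1a2, a retinaldehyde dehydrogenase that makes retinoic acid, and Ankrd44, each at 0.98. Btla was matched by Adgrg6 (0.97), the ubiquitin ligase gene Cblb (0.97) and the repressor gene Bach2 (0.96), and of these Cblb had 0.68 over the 11 arrays. Kit was matched by Tspan13 (0.96), Ece1 (0.95) and Elovl5 (0.94), the last at 0.64 over the 11 arrays. Runx3 had a different set, namely Pkib, the sorting-marker gene Itgax and Zfp516, each at 0.96. Like Runx3, Itgax was lowest in peritumoral 4, at 11.07.

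Lists of related genes were set against the mean of the 8 genes per array, with correlations of at least 0.5 or at most -0.5 counted as a description, beside 19.8% and 23.9% of all 19938 genes. Shared dendritic cell genes tracked it for 11 of 15 members and type 2 dendritic cell genes for 9 of 15. Examples, chosen after their values were seen, were Cd209a (0.97), a lectin of type 2 and monocyte-derived dendritic cells, Ccl22 (0.98), a chemokine of mature dendritic cells, and H2-Oa (0.98). Against it ran Pstpip1 (-0.69) among the shared genes, and Sirpa (-0.79) and Clec4a2 (-0.65) among the type 2 genes. Of 10 type 1 markers 5 tracked it, among them Xcr1 (0.74) and Clec9a (0.76), and 0 opposed it at the size counted. Cadm1 (-0.15), Itgae (-0.22) and Tlr3 (-0.26) of that list were below 0. These type 1 markers were likewise named after their values were seen. Of 7 plasmacytoid markers 3 tracked it and 1, Bst2 (-0.59), opposed it. Over the 11 arrays without tumoral 1, 4 and 7 and peritumoral 3 and 6, the correlation of the plasmacytoid list mean turned to -0.41, against 0.64 over 16 arrays. That of the type 1 list was 0.32 against 0.76, that of the type 2 list 0.84 against 0.98 and that of the shared list 0.80 against 0.93. The 11 arrays include peritumoral 4, where the plasmacytoid list mean was highest, at 0.54. Without peritumoral 4 alone, the plasmacytoid list mean correlated with that of the 8 genes at 0.89.

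Dendritic cell transcription factors were divided. Of 22 measured, 10 tracked the mean of the 8 genes, among them Notch2 (0.95), a receptor and transcriptional regulator of type 2 cells, Stat3 (0.93), which acts below the Flt3 receptor, Relb (0.92) and Bcl6 (0.90). Batf3 (0.75), on which type 1 cells depend as they do on Irf8, was also among the 10. Another 3 opposed the mean of the 8 genes: Irf8 (-0.83), a factor of type 1 cells and monocytes, Zeb2 (-0.65) and Spi1 (-0.55), which encodes PU.1. Spi1 measured 11.72 ± 0.10 in tumoral and 11.69 ± 0.17 in peritumoral arrays, a difference of 0.03 (limma adjusted p = 0.901) that turned to -0.02 without peritumoral 4. Of 12 growth factor receptors and ligands, 1 tracked it (Kitl, 0.57), and Csf1 (-0.67), its macrophage receptor gene Csf1r (-0.71) and Tnfrsf14 (-0.76) opposed it. Notch2, Stat3, Relb, Bcl6, Batf3, Irf8, Zeb2, Csf1 and Csf1r were singled out after their values were seen.

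Of 17 monocyte and macrophage markers 7 opposed the mean of the 8 genes, 2 tracked it and the rest lay between, with a median correlation of -0.05. The 7 were Mertk (-0.83) and Fcgr1 (-0.71), which encode a receptor for dying cells and the Fc receptor CD64, the complement genes C1qa (-0.54), C1qb (-0.66) and C1qc (-0.65), Fn1 (-0.76) and Cd68 (-0.65), all singled out after their values were seen. Mertk measured 10.53, 9.97, 10.37, 10.89, 9.86, 9.93, 10.12 and 9.93 in tumoral 1 to 8. Peritumoral 1 to 8 gave 9.73, 10.01, 10.38, 10.17, 10.24, 10.56, 9.80 and 10.30. Its 5 highest values included 4 of the 5 arrays lowest in Flt3, and those of C1qa, C1qb and C1qc included all 5. The list as a whole had means of -0.20 to 0.26 in tumoral and -0.19 to 0.11 in peritumoral arrays, with a correlation to the 8 genes of -0.30. The 2 that tracked the 8 genes were Plac8 (0.58), a monocyte gene, and Siglecf (0.72), an alveolar macrophage gene, and Marco (0.46) and Car4 (0.28) were also above 0, all 4 named after their values were seen. The part of macrophages in the variation of the 8 genes was not tested.

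Some markers of other cells moved with the 8 genes and some against them. Those named here, other than Sdc1 and Krt8, were singled out after their values were seen. Over 16 arrays 22.2% of B cell, 25% of epithelial and 11.1% of neutrophil markers tracked the 8 genes. So did 30% of mast cell, 16.7% of T and innate lymphoid cell and 20% of fibroblast markers, beside 19.8% of all genes. The counts are therefore given as a description only. The mean of 9 B cell and plasma cell markers correlated with that of the 8 genes at 0.50 over 16 arrays and at 0.90 without peritumoral 4. Over 16 arrays 2 of the 9 tracked the 8 genes, Jchain (0.76), a chain of secreted antibody, and Ms4a1 (0.60), which encodes CD20, and 1 opposed them, Sdc1 (-0.79). Without peritumoral 4 these counts were 8 and 1, beside 4889 and 5221 of all 19938 genes. Of 12 epithelial and carcinoma markers 3 tracked the 8 genes, Epcam (0.93), Scgb1a1 (0.81) of airway club cells and Sftpc (0.71) of alveolar type 2 cells, each with its 5 lowest values in tumoral 1, 4 and 7 and peritumoral 3 and 6. Another 3 opposed them, Krt8 (-0.56), Krt18 (-0.70) and Cdh1 (-0.70). Mmp8 (-0.91), a neutrophil collagenase, had its 5 highest values in those 5 arrays, while the neutrophil granule gene Camp (0.64) tracked the 8 genes. Camp lay between 5.85 and 6.46, around 6.35, the 95th percentile of the olfactory and vomeronasal receptor genes. Of the mast cell, T and innate lymphoid cell, and fibroblast markers, 3 of 10, 2 of 12 and 2 of 10 tracked the 8 genes and 0 opposed them, and of the NK cell and endothelial markers 0 did either. Without peritumoral 4, 4 of 10 mast cell, 3 of 12 T and innate lymphoid cell and 3 of 12 endothelial markers tracked them and 0 opposed them. Of 10 fibroblast markers 4 then tracked them and 1 opposed them, and of 12 epithelial markers 6 and 3 did. NK cell markers still did neither. The epithelial list mean then correlated with that of the 8 genes at 0.66, against 0.36 over 16 arrays. The part of these cells in the variation of the 8 genes was not tested.

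Itgam, which encodes the sorting marker CD11b, had its 5 highest values in the same 5 arrays: 11.53, 11.62 and 11.62 in tumoral 1, 4 and 7, and 11.80 and 11.68 in peritumoral 3 and 6. In the remaining arrays it lay at 11.50 or below. H2-Ab1 had 4 of its 5 lowest values there, and its correlation with the mean of the 8 genes was 0.80, against -0.61 for Itgam.

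**Figure D5:**
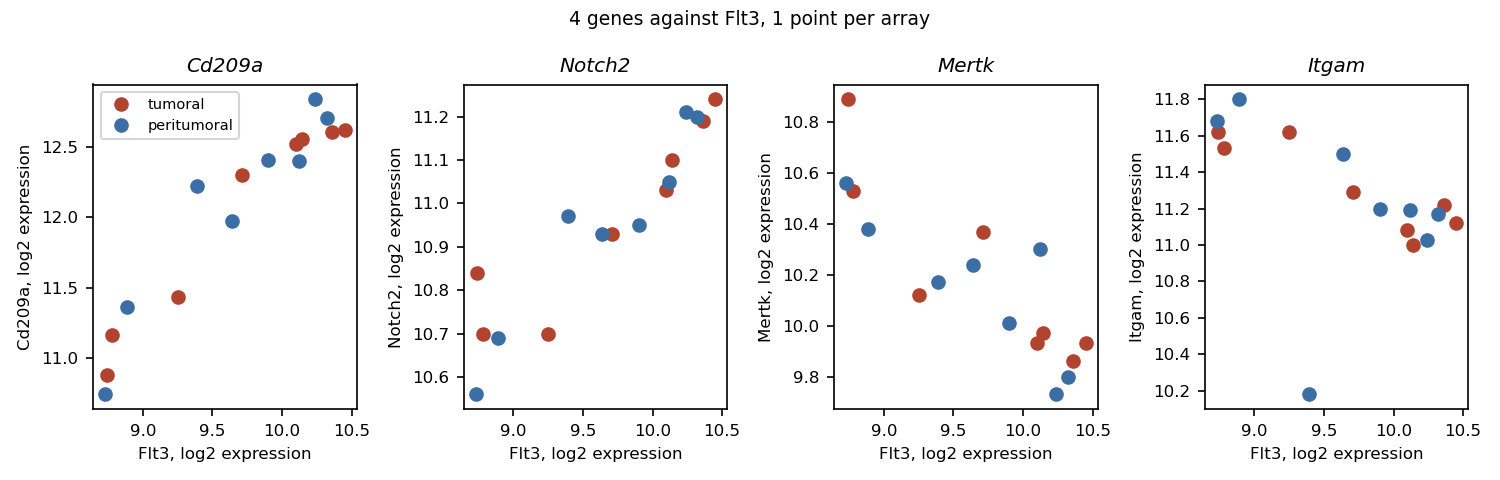
Log2 expression of Cd209a, Notch2, Mertk and Itgam (vertical axes) against Flt3 (horizontal axes), 1 point per array, coloured by label. Cd209a and Notch2 are high where Flt3 is high, Itgam is highest in the 5 arrays with the lowest Flt3, Mertk is among its 5 highest in 4 of them, and the lone low Itgam point at 10.18 is peritumoral 4.

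Between the labels, no gene of any of these lists passed limma over all genes in either direction. Tumoral arrays were the higher on average for 16 of 22 dendritic cell transcription factors, and the median difference was 0.06. The 2 with the smallest p were Cebpa (9.59 ± 0.21 in tumoral and 9.17 ± 0.31 in peritumoral arrays, limma adjusted p = 0.256) and Nfil3 (10.84 ± 0.10 in tumoral and 10.50 ± 0.24 in peritumoral arrays, limma adjusted p = 0.246). Neither followed the 8 genes, with correlations of -0.20 and -0.02. Shared dendritic cell genes were higher for 11 of 15 (median 0.04), type 2 genes for 8 of 15 (0.05), type 1 markers for 4 of 10 (-0.09), plasmacytoid markers for 1 of 7 (-0.09) and growth factor genes for 5 of 12 (-0.04). Monocyte and macrophage markers were higher for 12 of 17, with a median of 0.19 and with Ms4a4c at 0.50 and Cd14, a co-receptor for bacterial lipopolysaccharide, at 0.31 (limma adjusted p = 0.253 and 0.296). In the remaining dendritic cell lists the genes with the smallest p were Itgae (-0.46) and Gcsam (-0.37) for type 1, Cd24a (-0.22) and Esam (-0.86) for type 2, Itgax (0.15) and Snx22 (-0.08) for shared, Bst2 (0.25) and Ccr9 (-0.27) for plasmacytoid, and Il3ra (0.17) and Flt3l (-0.15) for growth factor genes. Their limma adjusted p ran from 0.239 for Gcsam to 0.626 for Ccr9. Of the remaining lists, 1 of 12 T and innate lymphoid cell markers was higher, and 0 of 7 NK cell, 0 of 9 neutrophil, 0 of 12 epithelial and 0 of 10 fibroblast markers were. The smallest p in these lists were those of Cd5 (-0.37) and Cd3g (-0.94) of T cells, Klre1 (-0.11) and Eomes (-0.37) of NK cells, Lcn2 (-1.25) and Ltf (-0.21) of neutrophils, Hopx (-0.57) and Krt8 (-0.65) of epithelium, and Dcn (-2.02) and Col3a1 (-0.37) of fibroblasts. Sdc1 (-0.31) and Cd79b (-0.41) led the B cell list, Cdh5 (-1.70) and Emcn (-1.45) the endothelial list, and Ms4a2 (-0.16) and Cpa3 (-0.24) the mast cell list. Several of these differences moved by over 1.5 times without peritumoral 4, a choice made after the values were seen. They were then -0.89 for Emcn, -0.12 for Cpa3, -0.15 for Cd79b, -0.16 for Eomes, -0.60 for Cd3g, -0.41 for Esam, -0.12 for Ccr9 and 0.10 for Itgax. List medians without that array were -0.42 for endothelial, -0.08 for NK cell, -0.04 for B cell and -0.28 for epithelial markers, against -0.81, -0.37, -0.30 and -0.53 over all arrays. The numbers higher in tumoral arrays were then 12 of 22 transcription factors, 8 of 15 shared, 7 of 15 type 2, 3 of 7 plasmacytoid, 7 of 12 growth factor, 3 of 9 B cell and 1 of 12 endothelial genes. Of all 19938 genes 7905 were then higher in tumoral arrays, against 41.7% over 16 arrays. The smallest limma adjusted p of all lists was 0.232, for Hopx. Klre1 averaged 3.68 in tumoral and 3.79 in peritumoral arrays, and Ms4a2 4.08 and 4.24. These means lay below 4.69, the median of the olfactory and vomeronasal receptor genes.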

How the data were processed

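The authors deposited 1 table of log2 expression for 28853 probe sets of an Affymetrix whole-transcript array in 16 samples; per the labels' protocols, RNA was amplified with the Ambion WT Expression Kit. Values ran from 2.31 to 14.33. The sources used here state no background correction, normalization or log base. Precision is limited by how many arrays there are. GEO's platform annotation supplied gene names (1 symbol for 21789, several for 1621, none for 5443). The probe set with the highest mean represented each of 19938 genes, and no filter was applied to dim ones. The test of tumoral against peritumoral arrays used lmFit and eBayes of limma 3.58.1, run under R 4.3.3. It was tested on simulated data (200 changed genes among 19938) and recovered 87.1% at 1.5-fold, 98% at 2-fold and 99.5% at 4-fold. Changed genes were drawn at random from all genes, with independent noise at each gene's own SD. Members other than Runx3 had a larger SD over the 16 arrays than at least 93.7% of genes. The shares recovered were therefore not measured for genes that vary as they do. Permutation tests, correlations and motif searches used Python 3.11.15.

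The members, 15 gene lists and tests were chosen with earlier results of these data known. Of 188 list entries 179 were measured, 2 of them matched by gene ID. The naming rule took the 8 genes, the 2 of each list with the smallest p, the sorting genes, ligands and partners, and the 3 genes most like each member; others are named as chosen after their values were seen. Alternatives were replicate blocks, quantile normalization, median centring, a filter on dim genes, the mean of all probe sets, robust variances, array weights and arrays left out.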

Additional observations from a re-analysis of the deposited data

Results flagged for a closer look

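None of the 8 dendritic cell identity genes had an array that stood apart from its label by Dixon's criterion, under which an extreme array's gap to its neighbour exceeds 0.526 of the range of 8 arrays. Of 162 groups examined 14 met it, where chance gives about 5%, and 13 of these were peritumoral 4. In that array Esam measured 10.15 (next 7.59), Cpa3 5.69 (next 4.89), Eomes 7.25 (next 5.69), Cd79b 10.63 (next 8.73) and Col3a1 8.16 (next 7.63), each the highest of its label. Cbfb, the partner of Runx3, was the lowest of its label there at 9.62 (next 9.89). The list means of peritumoral 4 that stood apart were 0.66 for mast cell, 1.19 for T and innate lymphoid cell, 2.15 for NK cell, 1.94 for B cell, 1.61 for epithelial, 3.56 for endothelial and 1.98 for fibroblast markers. In tumoral 2 the neutrophil list mean was 0.33 (next -0.14). Without peritumoral 4 the difference of Runx3 was 0.12 and that of Kit 0.12, against 0.19 and 0.00 over all arrays, and neither passed limma over all genes (adjusted p = 0.706 and 0.914). Of 36 other genes that the rule named from the lists, sorting genes, ligands and partners, 14 moved by over 1.5 times or turned without that array. Among them were Esam (-0.86 over all arrays, -0.41 without it), Eomes (-0.37 and -0.16), Cd79b (-0.41 and -0.15) and Cpa3 (-0.24 and -0.12).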

How the results depend on the processing

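Under 28 alternatives, 0 of 8 genes passed the threshold, and 51 of 224 differences turned direction, all of them small beside the intervals. Those of Runx3 stayed above 0 (0.10 to 0.27). Replicate blocks, the filter on dim genes, the mean of all probe sets, robust variances and the permutation test left every member difference unchanged. These alternatives could not turn a direction, though they are counted among the 224. Genes called numbered 0 to 128 with each array left out in turn (128 without peritumoral 7, 20 without peritumoral 8), 88 without peritumoral 4 and 7, and 522 without peritumoral 7 and 8; the cause was not tested. With each array left out, differences ran from -0.09 to 0.17 for Flt3, -0.11 to 0.07 for Zbtb46, -0.13 to 0.18 for Irf4, -0.10 to 0.18 for Dpp4, -0.21 to 0.04 for Btla, -0.10 to 0.13 for Bcl11a and -0.17 to 0.12 for Kit. Directions turned with quantile normalization for Flt3 (-0.00014), Zbtb46 (0.01) and Kit (-0.03), with median centring for Zbtb46 (0.02), and with array weights for Flt3 (-0.06) and Irf4 (-0.02). Zbtb46 and Btla turned to 0.01 and 0.04 without peritumoral 4 and 7 and to 0.09 and 0.05 without peritumoral 7 and 8. Without tumoral 1, 4 and 7 and peritumoral 3 and 6, Zbtb46 turned to 0.09 and Kit to -0.10, and correlations of Kit turned with Flt3 (-0.05), Zbtb46 (-0.04), Irf4 (-0.21) and Runx3 (-0.59). The arrays kept include peritumoral 4, the highest of all in Kit and the lowest in Runx3. Without peritumoral 4 alone, Kit correlated with Flt3 at 0.91, Zbtb46 at 0.87, Irf4 at 0.92 and Runx3 at 0.89. With the replicate number as a block, 0 genes and 0 members passed; same-numbered arrays shared only a number (correlations of their deviations -0.563 to 0.286, with 1 of 8 tumoral arrays closest to its own number). No detection calls were used here, so signal over background was not examined per probe set.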
